A study of Mus musculus with 2 samples.

Results

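Lipid-associated macrophage genes are the transcripts by which lipid-handling macrophages of fat, atheroma and tumors are commonly recognised. The 10 followed here were Trem2, Apoe, Gpnmb, Spp1, Lpl, Fabp4, Fabp5, Cd9, Plin2 and Lgals3, listed by symbol and all found among the 31053 genes of the count tables. They were read in single cells from mouse tumors, in the cells called monocytes or macrophages by marker genes. The cells were live CD45+ leukocytes sorted at day 4 from pooled tumors of Ptgs-deficient (cyclooxygenase-deficient) Braf-mutant melanoma growing in C57BL/6 hosts 8 weeks old, with cultured parental melanoma cells spiked into both samples. The control sample came from hosts left untreated. The NK cell-depleted sample came from hosts given 200 µg of anti-NK1.1 antibody (clone PK136) and 30 µg of anti-asialo GM1 on days 0 and 2. Both libraries were amplified with 11 cDNA and 14 index cycles. For both samples the genotype label calls the tumor cells wild-type whereas the sample titles and the design text name the knockout, so the tumor genotype rests on the titles. Each condition was 1 library, so differences between the libraries could not be tested against replicate spread, and every interval below is a 95% interval that covers counting error only. An untreated host is not a host given a control antibody, and the antibodies themselves cannot be told apart from the loss of NK cells.

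Macrophages that take up lipoproteins, dying cells or matrix face a load of cholesterol and fatty acids. Their usual response joins a lipid-sensing receptor (Trem2), proteins that carry or cleave lipoproteins (Apoe, Lpl), carriers and stores of fatty acids inside the cell (Fabp4, Fabp5, Plin2), and surface or secreted proteins that go with this state (Gpnmb, Spp1, Cd9, Lgals3). Whether these genes form 1 unit depends on whether the same cells hold them, which sums over a tissue do not show and single cells can.

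In mm10 coordinates of the GENCODE vM21 annotation, all 10 are protein-coding genes on 8 chromosomes. Trem2 lies at chr17:48346401-48354147, Apoe at chr7:19696109-19699188, Gpnmb at chr6:49036546-49070929, Spp1 at chr5:104435118-104441050 and Lpl at chr8:68880491-68907448. Cd9 lies at chr6:125460266-125494791, Plin2 at chr4:86648386-86670060 and Lgals3 at chr14:47367751-47386160. Fabp5 (chr3:10012548-10016607) and Fabp4 (chr3:10204088-10208576) are of 1 family and lie 187480 bases apart. RefSeq promoter windows of build GRCm38.p6 (250 bases before to 50 after a transcript's start) were matched by symbol for 7 of the 10 genes and covered 10 starts. Lpl, Fabp4 and Fabp5 were not matched. The windows were searched on both strands for CACGTG and CATGTG, letters bound by Mitf and Tfe factors, which govern lysosomal genes, and for ACGTG and GCGTG, the core of hypoxia response elements. CACGTG contains ACGTG. Plin2 alone held CACGTG, found in 7.15% of all 32851 windows, and Cd9 alone held CATGTG, found in 14.2%. GCGTG, found in 32.4% of all windows, was present for Trem2, Cd9, Plin2 and Lgals3, and ACGTG, found in 19.6%, for Plin2. Both sequences with a hexamer are shown because Plin2 and Cd9 each went together with Lgals3 in single cells (below). They are given 5′ to 3′ on the gene's strand, with the hexamer in capitals, and end at the last base before the start, or at the end of a hexamer that spans it. Plin2 is chr4:86670058-86670309 (minus strand), with the hexamer beginning 4 bases before the start. Cd9 is chr6:125494761-125495010 (minus strand), where the hexamer begins 38 bases before the start and is CATGTG read on the opposite strand.
Plin2: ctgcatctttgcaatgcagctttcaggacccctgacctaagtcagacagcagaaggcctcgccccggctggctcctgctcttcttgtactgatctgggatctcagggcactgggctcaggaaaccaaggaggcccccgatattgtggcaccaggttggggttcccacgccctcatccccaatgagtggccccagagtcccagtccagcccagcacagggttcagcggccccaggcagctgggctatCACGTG
Cd9: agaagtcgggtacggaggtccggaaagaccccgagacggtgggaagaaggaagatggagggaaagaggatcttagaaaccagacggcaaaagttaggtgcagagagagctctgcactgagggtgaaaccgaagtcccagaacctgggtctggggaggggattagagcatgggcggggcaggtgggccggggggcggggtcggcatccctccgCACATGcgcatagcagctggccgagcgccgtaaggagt

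After filtering, 5292 of 6115 control and 4506 of 5536 NK cell-depleted cells remained, with 24810009 and 23245982 unique molecular identifiers (UMIs, each counting 1 captured mRNA molecule) and medians of 4170 and 4893 UMIs per cell. The libraries shared 7 cell barcodes, 5 of them after filtering. There were 567 NK-like cells in control (10.7%) and 6 after depletion (0.133%). Monocyte/macrophage-like cells numbered 3455 (65.3%, interval 64.0 to 66.6) and 3154 (70.0%, 68.6 to 71.3). All 18 class markers were higher in them than in the other cells of either library. Clusters were assigned to the class by these same markers, so this is built into the naming and is no separate support for it. The cells of the class fell into 12 clusters, made without the 10 genes, of which 9 held at least 100 cells in each library. Classical monocyte-like cells made up clusters 4 (Gm9733, Ly6c2, Hdc), 7 (with Hp and Chil3 among its leading genes) and 10 (with Vcan and Hp). Cluster 0 (Pf4, Arg1, Spry2) was Pf4 macrophage-like, cluster 2 (Spint1, Klrb1b, Htra3) antigen-presenting macrophage-like and cluster 12 (Retnla, Il6, Cd226) Retnla macrophage-like. Cluster 1 (Ccl8, Lyve1, Gas6), cluster 9 (Rhov, Tnfrsf23, Procr) and cluster 11, led by Slc7a2, met no state's marker rule and are called by these genes. The state with most markers among the first 50 genes was hypoxic macrophage for clusters 9 (8 markers) and 11 (4). For cluster 1 it was interferon-rich (6). In each, another state had as many or more markers among the first 10 genes. There cluster 1 held no interferon-rich marker but 4 of the resident macrophage list (Ccl8, Lyve1, Gas6, Cbr2). Cluster 11 held no hypoxic macrophage marker there but 3 of the Mmp12 macrophage list (Slc7a2, Dcstamp, Mmp12). Cluster 9 held 1 of each of these 2 lists (Mmp13 and Mmp12). Names were rebuilt from markers and may differ from the study's own.

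Across the class, 9 of the 10 genes had a higher level in control than in NK cell-depleted cells and 1, Lpl, had a lower one. Levels are CPM, a gene's UMIs in 1000000 UMIs of the class or cluster, and ratios are control over NK cell-depleted. A gene was called past the fold where its log2 ratio was at least 0.5 in size and the counting interval excluded 0, which 4 of the 10 genes were in the higher direction (Trem2, Apoe, Gpnmb, Fabp5) beside 7.23% of the 11807 genes compared, and 1 (Lpl) in the lower direction beside 4.30%. Apoe lay close to the fold (log2 ratio 0.52) and was not past it in cells with at least 2000 UMIs and at most 5% mitochondrial UMIs (0.48), nor with cluster 13 counted in the class (0.49), an alternative added after seeing the data. The median log2 ratio was 0.42 over the 10 genes and -0.01 over all genes compared.

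Trem2, a surface receptor for lipids and lipoproteins that signals through Tyrobp, stood at 230 CPM in control and 133 CPM after depletion (ratio 1.72, 1.64 to 1.81). Apoe, the secreted apolipoprotein that carries cholesterol out of macrophages, was at 3491 and 2437 CPM (ratio 1.43, 1.42 to 1.45). Lpl, the secreted lipase that frees fatty acids from lipoprotein triglycerides, was at 1002 and 1520 CPM (ratio 0.66, 0.65 to 0.67). The pair of lipoprotein proteins thus differed between the libraries in opposite directions.

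Among the proteins that handle fatty acids inside the cell, Fabp5 was at 272 and 163 CPM (ratio 1.67, 1.59 to 1.74). Fabp4 of the same family, the adipocyte-type carrier, was at 19.6 and 16.0 CPM (1.23, 1.05 to 1.43). Plin2, which coats lipid droplets, was at 622 and 566 CPM (1.10, 1.07 to 1.13). Fabp4 was sparse, with 372 and 296 UMIs in the class, of which the 5 cells with most held 18.8% and 21.3%.

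Of the surface and secreted proteins, Gpnmb, a lysosomal and cell-surface glycoprotein, had the largest ratio of the 10, at 95.3 and 51.9 CPM (1.84, 1.70 to 1.99). Spp1, which encodes osteopontin, was at 626 and 461 CPM (1.36, 1.32 to 1.40) and the tetraspanin Cd9 at 192 and 146 CPM (1.32, 1.25 to 1.38). Lgals3, which encodes galectin-3, was at 1712 and 1372 CPM (1.25, 1.23 to 1.27). Apart from Lpl, every gene was higher in control over the class as a whole, with ratios between 1.10 and 1.84.

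**Figure D1:**
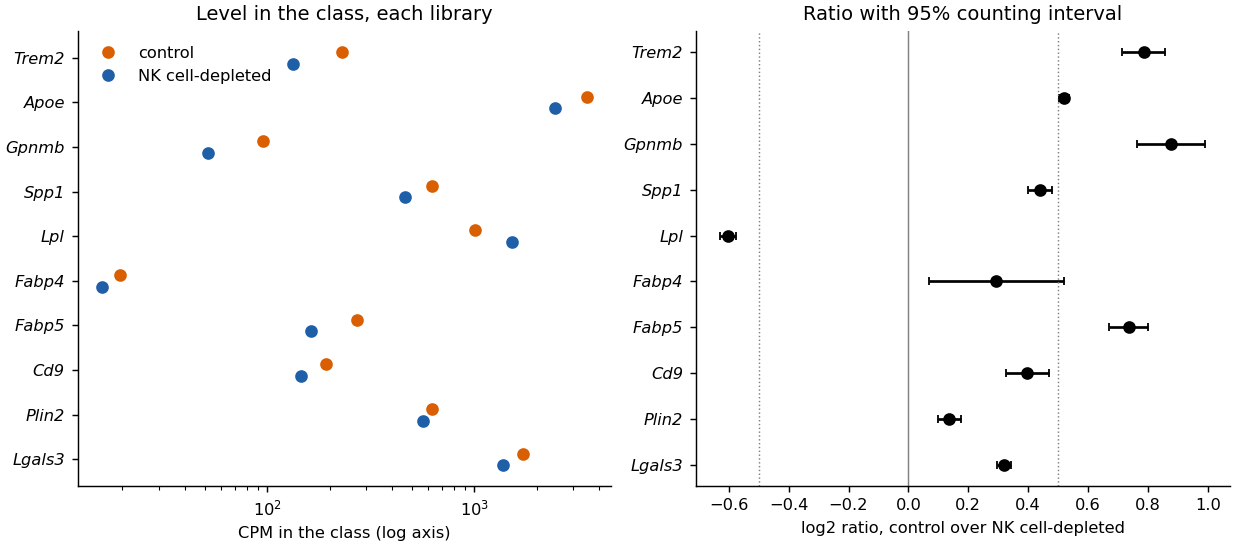
Left, level of each gene in monocyte/macrophage-like cells of the control (orange) and NK cell-depleted (blue) library, in CPM on a log axis. Right, log2 ratio of control over NK cell-depleted with its 95% counting interval, with dotted lines at the fold of 0.5; Lpl lies below the lower line, and Trem2, Apoe, Gpnmb and Fabp5 above the upper one.

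Markers of other cell types were also read in the class. They summed to 33.0 CPM in control and 18.7 CPM in NK cell-depleted cells for NK cells (10 genes, 0 and 7 of them at 0), 126 and 135 CPM for neutrophils (11 genes, 1 and 1 at 0), 185 and 205 CPM for cDC2 (9 genes, none at 0) and 57.3 and 25.2 CPM for migratory dendritic cells (9 genes, 0 and 1 at 0). Those of T cells, B cells, eosinophils, mast cells, melanoma cells and fibroblasts each summed to at most 19.8 CPM. Endothelial markers summed to 35.3 and 21.9 CPM, those of cDC1 to 114 and 116 CPM, and those of plasmacytoid dendritic cells to 574 and 544 CPM. The plasmacytoid sum was spread over every cluster of the class, at 154 to 1114 CPM in control and 168 to 886 CPM after depletion. Without the 51 and 30 cells called doublets, or without cells holding 2 or more markers of melanoma, NK, T, B or neutrophil cells, the median log2 ratio of the 10 genes was still 0.42 and the same numbers of genes, 4 and 1, were past the fold. The part of the remaining marker lists was not tested.

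The class levels join clusters of unequal size in the libraries. Cluster 0 held 26.8% of the class in control (25.3 to 28.3) and 12.3% in NK cell-depleted cells (11.2 to 13.5), and cluster 2 held 20% and 10.9%. The monocyte-like cluster 4 held 5.12% and 14.0%, cluster 7 held 4.23% and 11.7%, and cluster 1 held 14.5% and 22.9%. The clusters were made from both libraries together, so these shares can also follow genes that differ between the libraries. When clusters were weighted alike in the libraries, the median log2 ratio of the 10 genes was 0.04 in place of 0.42, none of the 10 was past the fold in the higher direction, and Lpl was still past it in the lower (log2 ratio -0.52). Spp1 and Cd9 then lay on the other side, at log2 ratios of -0.27 and -0.21. Without cluster 0, an alternative added after seeing the data, the median was 0.22 and the 2 genes past the fold in the higher direction were Trem2 (log2 ratio 0.52) and Cd9 (0.67), while Apoe (0.20), Gpnmb (0.24) and Fabp5 (0.47) were not past it.

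Each gene had its own order over the 9 larger clusters, and the highest cluster was the same in both libraries for all 10. Trem2 was highest in cluster 0, with 466 CPM in control and 366 CPM in NK cell-depleted cells, followed by cluster 9 (266 and 211 CPM), and lowest in cluster 12 (17.5 and 24.8 CPM). The 3 monocyte-like clusters held 37.3 to 73.5 CPM of Trem2 over both libraries. Clusters 2 and 11 were neighbours in the control order (167 and 176 CPM) with counting intervals that overlapped.

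Apoe was highest in clusters 1 and 0, at 6203 and 6148 CPM in control and 4310 and 4290 CPM in NK cell-depleted cells, which do not differ beyond counting error within a library. It was lowest in clusters 12 (173 and 102 CPM) and 11 (208 and 139 CPM). Lpl had its highest levels in clusters 12 (2797 and 3956 CPM) and 11 (2614 and 2850 CPM), and in cluster 12 every cell of either library held a UMI of Lpl. Of the 9 larger clusters, the 2 poorest in the lipoprotein Apoe were thus the 2 richest in the lipase Lpl, but cluster 1, with most Apoe, came next for Lpl (1090 and 1755 CPM). The smaller cluster 14, with 78 and 61 cells, held 2851 and 3095 CPM of Lpl.

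Cluster 9 held the highest level of the other 7 genes in both libraries. Gpnmb was at 558 and 606 CPM there, against 213 and 112 CPM in cluster 0 and at most 48.7 CPM in each of the other 7 clusters of either library. Spp1 was at 1693 and 2198 CPM in cluster 9 and at 1498 and 1780 CPM in cluster 0, and at 9.31 to 362 CPM in the other clusters of the control library. Spp1 and Gpnmb were thus highest in the same 2 clusters. Markers of mast cells summed to 209 CPM in cluster 9 of the control library and to 0.0 CPM after depletion, and their part in these levels was not tested.

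Plin2 was at 1638 and 1673 CPM in cluster 9, followed by cluster 11 (816 and 874 CPM) and cluster 0 (787 and 736 CPM). Lgals3 was at 3886 and 3993 CPM in cluster 9 and at 3429 and 2932 CPM in cluster 11, and its lowest cluster, cluster 4, still had 893 and 785 CPM. Cd9 was nearly level between clusters 9 (506 and 554 CPM) and 11 (486 and 513 CPM), with overlapping intervals, and was lowest in cluster 7 (12.4 and 8.34 CPM). Cluster 11 thus lay nearest cluster 9 for Cd9 and Lgals3 but not for Gpnmb or Spp1, and for Plin2 its control interval overlapped that of cluster 0.

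Fabp5 was at 530 and 487 CPM in cluster 9 and at 525 and 405 CPM in cluster 0. Fabp4 was at 71.0 and 56.6 CPM in cluster 9. The small cluster 21 (Ace, Slc12a2, Pglyrp1; nonclassical monocyte-like; 17 and 30 cells) held more Fabp4 than any larger cluster, 282 and 339 CPM, from 11 and 32 UMIs. The order of the 9 clusters was alike in both libraries, with Spearman's rho of 0.90 to 0.98 for 8 genes, 0.72 for Fabp4 and 0.52 for Fabp5, as a description over 9 clusters that share their libraries.

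**Figure D2:**
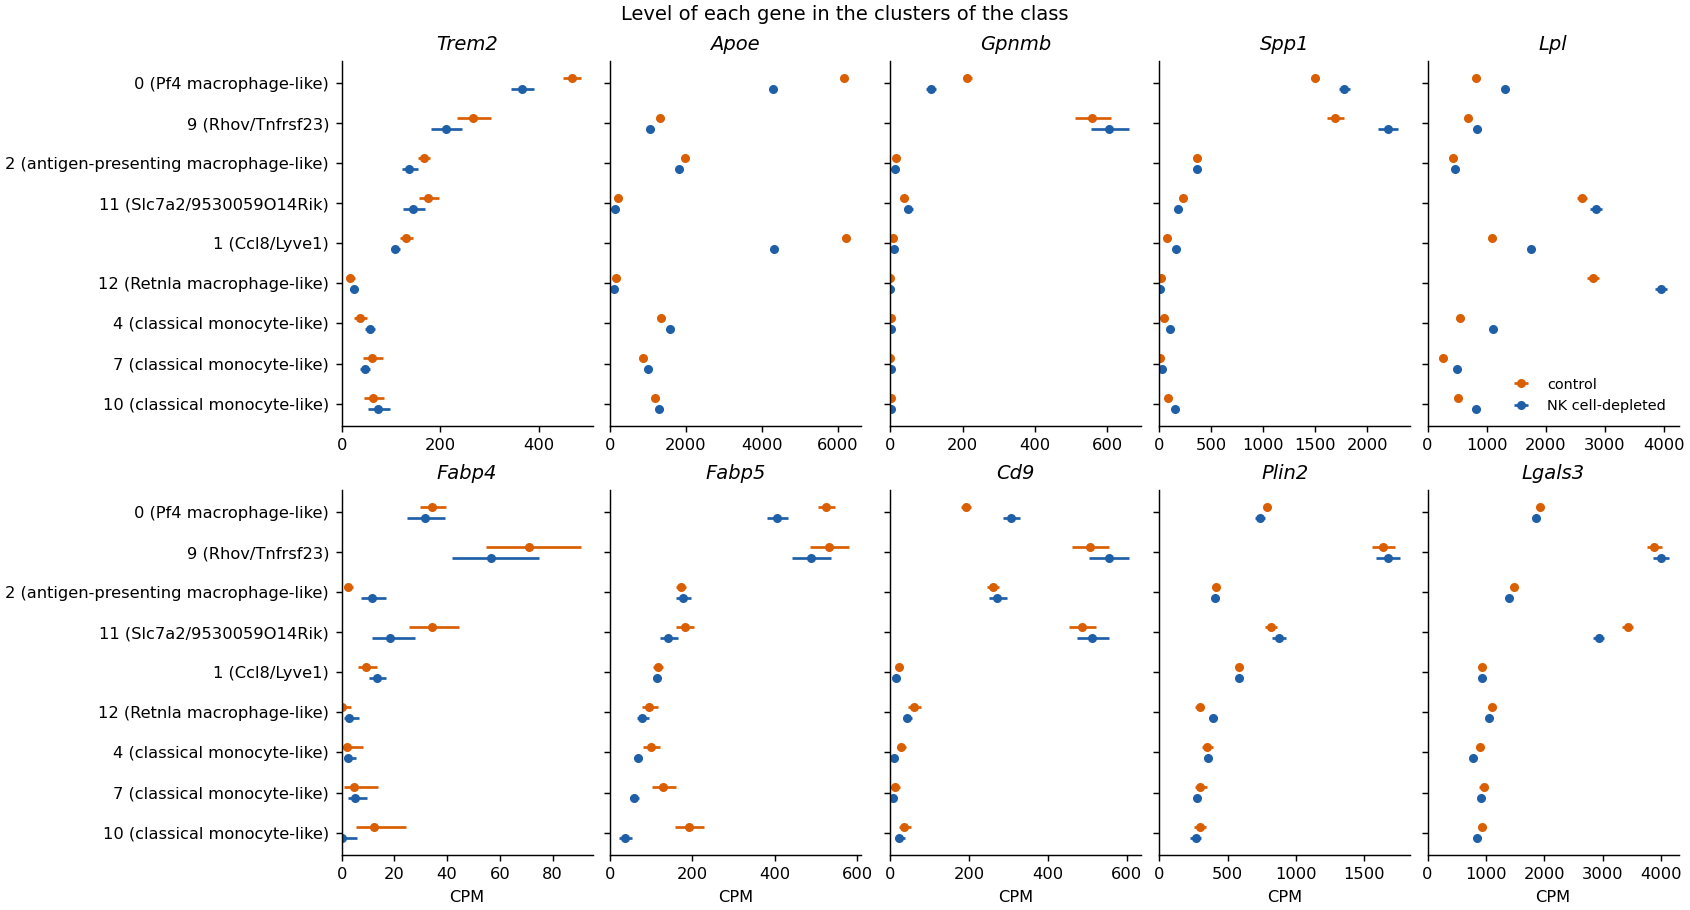
Level (CPM) of each gene in the 9 larger monocyte/macrophage-like clusters (number and state, or first 2 genes by fold where no state was named), control in orange and NK cell-depleted in blue, with exact 95% counting intervals. Cluster 9 is the highest for Gpnmb, Spp1, Fabp4, Fabp5, Cd9, Plin2 and Lgals3, cluster 0 for Trem2, cluster 1 for Apoe and cluster 12 for Lpl, in both libraries.

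Within clusters the libraries differed gene by gene rather than together, and the median log2 ratio over the 8 to 10 genes with at least 20 UMIs in a cluster lay between -0.12 (cluster 4) and 0.25 (cluster 11). Lpl was lower in control in 9 of the 9 larger clusters, beyond counting error in 8, from a log2 ratio of -1.01 in cluster 4 (548 against 1103 CPM) to -0.08 in cluster 2 (436 against 461 CPM). Spp1 was lower in control beyond counting error in 6 clusters, such as cluster 1 (68.7 against 156 CPM), and higher in 1, cluster 11 (227 against 178 CPM). In clusters 4, 7 and 10, all among those lower, the 5 cells with most Spp1 held 48.9 to 83.3% of its UMIs. In cluster 11 they held 61.9% in control. The share of cells with Spp1 was nearly level in clusters 4 (11.9% and 11.4%) and 10 (9.8% and 10.3%). It was lower in control in clusters 0, 1, 7 and 9. Lpl and Spp1 were thus mostly lower in control once clusters were compared with themselves, although Spp1 was higher over the class. For Spp1 in clusters 4, 7, 10 and 11 this rests on few cells.

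Apoe was higher in control beyond counting error in 6 clusters and lower in 2, the monocyte-like clusters 4 and 7. Clusters 11 and 12 were among the 6, and there the 5 cells with most Apoe held 58.1 to 68.0% of its UMIs. Trem2 was higher in 5, among them cluster 0 (log2 ratio 0.35) and cluster 9 (0.33), and lower in cluster 4 (-0.59). In cluster 0 Gpnmb had a log2 ratio of 0.92, with 1126 and 281 UMIs, while in cluster 9, where its level was highest, the ratio was -0.12 with an interval from -0.30 to 0.06.

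Fabp5 was higher in control in 8 of 9 clusters and beyond counting error in 5, with its largest ratio in the monocyte-like cluster 10 (191 against 36.7 CPM, log2 ratio 2.36). That value came from 124 and 24 UMIs, and the 5 cells with most held 43.5% and 41.7% of them. Markers of migratory dendritic cells, which are rich in Fabp5 (below), summed to 26.2 CPM in that cluster in control and 7.7 CPM after depletion, and their part in the ratio was not tested. Cd9 was lower in control in cluster 0 (192 against 307 CPM, log2 ratio -0.68) and higher in clusters 1 and 4, where it had 72 and 76 and then 24 and 25 UMIs. Plin2 and Lgals3 differed least, between log2 ratios of -0.42 and 0.16 and of -0.04 and 0.23.

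**Figure D3:**
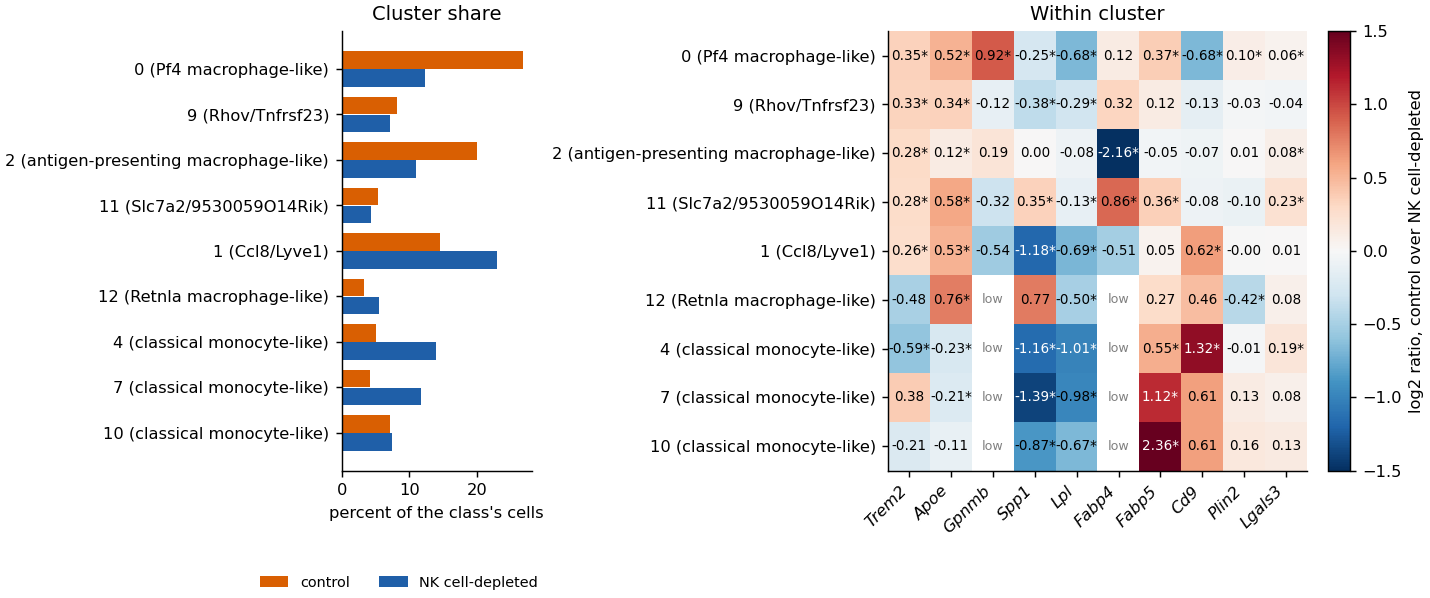
Left, share of monocyte/macrophage-like cells in each larger cluster, in percent. Right, log2 ratio of control over NK cell-depleted for each gene within each cluster (red, higher in control), where an asterisk marks a 95% counting interval that excludes 0 and low marks under 20 UMIs over both libraries; the Lpl column is negative throughout.

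Most UMIs of the 10 genes lay in cells of the class. Of all UMIs in filtered cells, 90.9 to 99.0% lay in monocyte/macrophage-like cells for 8 genes, but 78.1% and 76.9% for Fabp5 and 70.0% and 61.9% for Cd9. Fabp5 was at 2605 and 2063 CPM in migratory dendritic cell-like cells, above its level in any cluster of the class. Cd9 was at 1171 and 1385 CPM in neutrophil-like cells.

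To set cells of unequal depth side by side, each cell was thinned to 2000 UMIs, which kept 3116 of 3455 and 2911 of 3154 cells of the class. Trem2 was seen in 31.0% of thinned control cells (29.4 to 32.7) and 19.5% of NK cell-depleted cells (18.1 to 21.0), Gpnmb in 9.1% and 5.5%, and Lpl in 44.8% and 52.7%. T-like cells, which should lack these genes and were thinned to the same depth (medians before thinning of 2083 and 2330 UMIs against 5011 and 5453.5), showed Trem2 in 0.63% and 0.0%, Gpnmb in 1.9% and 0.0%, and Lpl in 3.8% and 3.5%. Without thinning, the shares in the class were 49.3% and 37.2% for Trem2 and 55.8% and 63.1% for Lpl. The zeros among 144 T-like cells allow a share of up to 2.08% by 3 counts of the total, or 2.53% as the exact upper bound. Lgals3 was seen in 15.6% and 11.8% of T-like cells beside 82.4% and 79.2% of the class. Summed over T-like and B-like cells, the level of a gene was 0.0 to 8.28% of its level in the class for 9 genes, and 15.8% and 22.7% for Cd9. Melanoma-like cells had Spp1 at 168 and 200 CPM, Lgals3 at 606 and 588 CPM and Gpnmb at 27.0 and 9.9 CPM, below the class in each case. The Gpnmb values came from 4 and 3 UMIs and those of Spp1 from 25 and 61. These melanoma-like cells were the 52 and 69 left by the upper limits on UMIs and genes. Melanoma markers within the class summed to 17.6 and 14.4 CPM over 13 genes, 3 of them at 0 in each library.

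In single cells the 10 genes went together in part, and Apoe stood furthest apart from the others. Over the 45 pairs, the median Pearson r of log2(UMI + 1) in thinned cells was 0.133 in control and 0.111 in NK cell-depleted cells. An r above 0.2 was seen in 12 and 13 pairs, beside 0.062% and 0.050% of all pairs of 4800 genes seen in at least 5% of cells. Those genes were not matched to the 10 for detection. Among them, the closest other gene of the 10 ranked 146 for Apoe, 76 for Lpl, 20 for Lgals3 and 17 for Trem2. It ranked 2 to 5 for the rest, by the lower r of both libraries. The pairs share library, depth and free RNA, and r is low in sparse counts, so these values are a description.

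The pairs with the highest r in control were Gpnmb with Spp1 (0.33 in control, 0.28 after depletion), Gpnmb with Fabp5 (0.31, 0.26), Plin2 with Lgals3 (0.30, 0.28) and Cd9 with Lgals3 (0.30, 0.33). After depletion, Cd9 with Lgals3 was the highest, and Gpnmb with Plin2 (0.27) lay above Gpnmb with Fabp5. Gpnmb and Spp1 were seen in the same cell in 5.65% of control and 3.16% of NK cell-depleted cells, 2.75 and 2.96 times the product of their separate shares. Counted within clusters, the same ratios were 1.53 and 1.19.

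Apoe had a negative r with Lgals3 (-0.20, -0.18), Cd9 (-0.15, -0.10) and Lpl (-0.13, -0.03). Trem2 and Apoe, receptor and ligand, had an r of 0.25 in control and 0.10 in NK cell-depleted cells. The mean r of a gene with the other 9 was lowest for Apoe (0.028 and 0.006) and Lpl (0.040 and 0.023) and highest for Gpnmb (0.196 and 0.175). With cluster means removed, the median r over pairs was 0.094 and 0.064, and 3 and 0 pairs stayed above 0.2, so cells of the same cluster showed less of the pattern. The mean r of Lpl within clusters was 0.062 and 0.051, near that of Trem2 (0.065 and 0.040), while Apoe remained lowest (0.003 and 0.002).

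**Figure D4:**
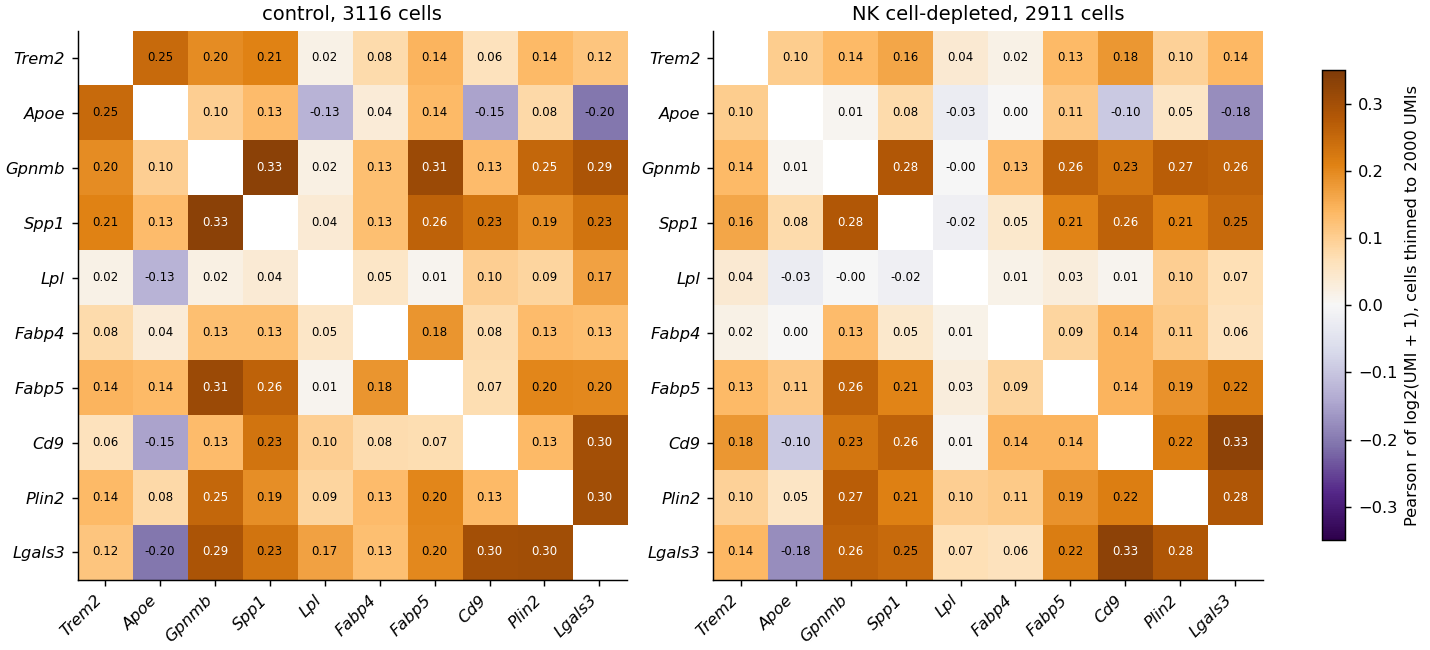
Pearson r of log2(UMI + 1) for the 45 pairs of genes in monocyte/macrophage-like cells thinned to 2000 UMIs, 3116 control cells (left) and 2911 NK cell-depleted cells (right). Of the 45 pairs, 42 in control and 40 in NK cell-depleted cells are positive. The highest r is that of Gpnmb with Spp1 in control and of Cd9 with Lgals3 in NK cell-depleted cells. Apoe is negative with Lgals3, Cd9 and Lpl in both libraries.

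The 3 other genes closest to each gene, by the lower r of both libraries among 4800 genes, also separated them. Apoe was closest to Selenop (0.54, 0.51), Lgmn (0.57, 0.48) and Maf (0.50, 0.43). Trem2 was closest to Pf4 (0.37, 0.27), Ctsl and Arg1, and Spp1 to Ctsl (0.34, 0.32), Arg1 and Hilpda. Pf4 and Arg1 also lead cluster 0, the cluster with most Trem2.

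Lgals3 was closest to Pgk1 (0.40, 0.41), Fth1 and Mif, and Cd9 to Mmp12 (0.36, 0.45), Pgk1 and Fth1. Plin2 was closest to Ftl1 (0.32, 0.32), Ctsb and Fth1, and Fabp5 to Fth1 (0.27, 0.28), Ctsl and Ctsb. Gpnmb was closest to Il7r (0.34, 0.36), Lhfpl2 and Fth1. The ferritin gene Fth1, an iron store, thus recurred for Lgals3, Cd9, Plin2, Fabp5 and Gpnmb. Because r is low in sparse counts, the ranking favors abundant genes, such as Ctsb (2859 CPM in control) and Pgk1 (1165 CPM). The part of abundance in this recurrence was not tested. Lpl was closest to Ccl9 (0.30, 0.30), Gpx1 and Pltp. Fabp4 had weak values throughout, with Cd36 (0.14, 0.17), a fatty acid transporter, the closest.

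A cell of the class held 5 or more of the 10 genes in 28.2% of thinned control cells (26.6 to 29.8; 878 of 3116) and 20.3% of NK cell-depleted cells (18.9 to 21.8; 592 of 2911), and all 10 in 1 and 3 cells. By cluster, the share was 59.1% and 66.3% in cluster 9 and 53.2% and 57.5% in cluster 0. Cluster 11 followed with 27.6% and 25.2%, clusters 2 and 1 had between 14.4% and 17.6%, and the monocyte-like clusters and cluster 12 had between 0.9% and 6.0%. The counting intervals of the libraries overlapped in each of the 9 larger clusters, but not over the class as a whole.

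**Figure D5:**
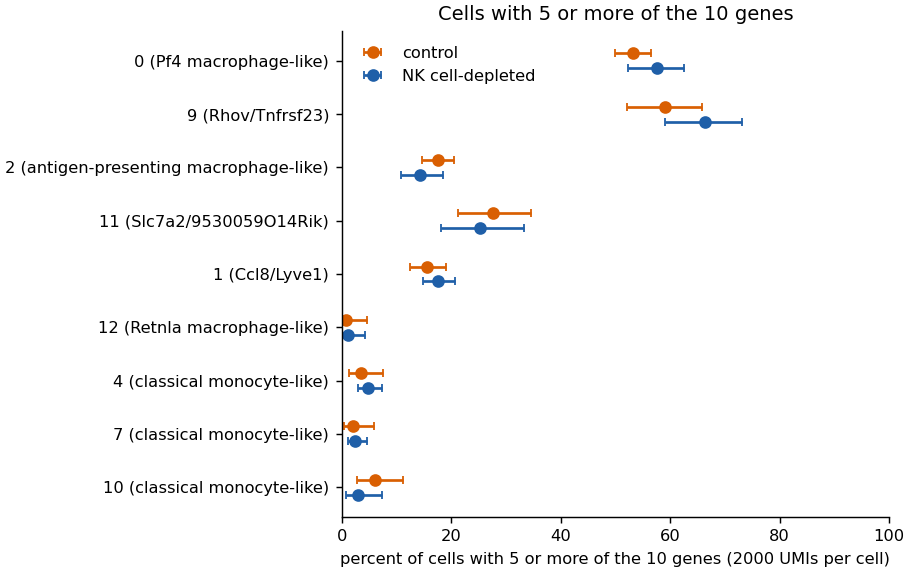
Percent of cells, thinned to 2000 UMIs, in which 5 or more of the 10 genes had a UMI, by cluster and library, with exact 95% binomial intervals. Clusters 0 and 9 lie above 50% in both libraries, and each of the other 7 larger clusters lies below 30%.

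Genes of the surrounding pathways, 82 listed and 80 measured with the 10 genes left out, had a median log2 ratio of 0.15. Past the fold were 8 in the higher and 3 in the lower direction, beside the same 7.23% and 4.30% of all genes. These are ratios over the whole class, whose clusters differed in share between the libraries. They were not taken with clusters weighted alike, so the part of cluster shares in them was not tested. Of 14 hypoxia and glycolysis genes, 4 were higher past the fold: the glycolytic enzymes Eno1 (270 and 135 CPM) and Gapdh (log2 ratio 0.55), the kinase Pdk1 (0.55) and the oxygen-sensing hydroxylase Egln3 (0.53). Of 18 lysosomal genes 2 were higher, the phosphatase Acp5 (52.2 and 27.9 CPM, 0.90) and the cathepsin Ctsk (14.4 and 7.82 CPM, 0.88).

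Of 14 lipid droplet and fatty acid genes, Hilpda, which restrains lipolysis under low oxygen, was higher (258 and 164 CPM, 0.65). Pparg, a nuclear receptor for fatty acids, was lower in control (13.5 and 21.9 CPM, -0.70), as was the triglyceride lipase Pnpla2 (20.8 and 30.6 CPM, -0.56). Of 10 regulators, Tfec of the Mitf and Tfe family was higher (19.8 and 13.5 CPM, 0.55) and Cebpb lower (973 and 1448 CPM, -0.57). No gene of the Trem2 signaling (5), lipid uptake receptor (9) or cholesterol efflux (10) lists was past the fold, with median log2 ratios of -0.22, -0.01 and 0.19.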

How the data were processed

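Single-cell 3′ libraries of 1 control and 1 NK cell-depleted sample were analysed from the deposited UMI counts, unnormalized counts per gene and cell barcode. The authors made them with Cell Ranger (version 3.0.2 per the file headers, whereas the methods name another release) against mm10. The files held 11651 barcodes, as many as the study states. The deposited normalized table was not used. Kept were 9798 cells, those between 500 and 15000 UMIs and between 200 and 4000 genes, with no more than 10% of UMIs from mitochondrial genes. Scrublet, in scanpy 1.11.5, called 51 and 30 doublets, which stayed in the main analysis. Cells were clustered without the 10 genes (log2(CPM + 1), 2000 variable genes, 15 components, 20 neighbours, Leiden resolution 1, leidenalg 0.10.2) and named by markers. The naming thresholds were set after clusters were seen. Clusters left unnamed against all other cells were compared again, with only the clusters already named as classes other than monocyte/macrophage. Clusters 9, 11, 12 and 14 entered the monocyte/macrophage class at that later step. Counts were summed per library with 0.5 UMI added in log2 ratios, for genes with at least 20 UMIs. Intervals are exact (Poisson or binomial, 95%, scipy 1.17.1) and cover counting error only. The script for ratios and correlations was tested on simulated data. Named were all 10 genes, pathway genes past the fold (up to 4 each way per list) and, for each gene, the 3 others with the highest r in at least 5% of thinned cells. The genes, lists and rules were chosen with earlier results of these data known. 1 leading gene of clusters is not reported here.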

Additional observations from a re-analysis of the deposited data

Results flagged for a closer look

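For 6 of the 10 genes the ratio of control over NK cell-depleted cells lay beyond counting error in opposite directions in different clusters of the class. The share of all genes that did so was not counted, so the 6 cannot be set against it. The differences between clusters were not tested, since each cluster has 1 library per condition. Trem2 had a log2 ratio of 0.35 in the Pf4 macrophage-like cluster 0 and -0.59 in the monocyte-like cluster 4. Apoe had 0.76 in the Retnla macrophage-like cluster 12 and -0.23 in cluster 4. Spp1 had 0.35 in cluster 11, led by Slc7a2, and -1.39 in the monocyte-like cluster 7, where it had 6 and 47 UMIs. Fabp4 had 0.86 in cluster 11 (54 and 22 UMIs, with 81.5% and 81.8% of them in 5 cells). It had -2.16 in the antigen-presenting macrophage-like cluster 2 (11 and 24 UMIs, with 63.6% and 95.8% of them in 5 cells). Cd9 had 1.32 in cluster 4 (24 and 25 UMIs, with 62.5% and 40% of them in 5 cells) and -0.68 in cluster 0 (1018 and 770 UMIs). Plin2 had 0.10 in cluster 0 and -0.42 in cluster 12.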

How the results depend on the processing

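No paired analysis was possible because each condition was 1 library. When clusters were weighted alike in the libraries, 0 genes were past the fold in the higher direction, the median log2 ratio was 0.041, and Spp1 (-0.27), Cd9 (-0.21) and Plin2 (-0.0062) changed sign. Without cluster 0, which held more of the control class, 2 genes were past the fold in the higher direction and the median was 0.22. Without upper limits on UMIs and genes the median was 0.52. At a log2 ratio of 1, 0 genes were past the fold in the higher and 0 in the lower direction, and at 0.25 there were 8 in the higher. The median r between genes was 0.094 in control cells thinned to 1000 UMIs, 0.229 and 0.223 in cells not thinned, and 0.094 and 0.064 within clusters. The ratio of shares of cells with 5 or more genes, 1.39 in the main analysis, was 1.23 without thinning and 1.21 for 4 or more genes. Lpl kept a log2 ratio between -0.63 and -0.52 under all 16 alternatives to the class ratio, and Trem2, Apoe, Gpnmb, Fabp5 and Lgals3 kept their sign. Fabp4 was at 0.0069 (-0.22 to 0.24) when clusters were weighted alike. Apoe was not past the fold at stricter cell limits (0.48) or with cluster 13 in the class (0.49), each of which left 3 genes past it in the higher direction. Depth limits Fabp4, and Gpnmb outside clusters 0 and 9.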
